A study of Mus musculus with 4 samples.

Results

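The 10 genes described here encode proteins of the eye lens and of its fibre cells. They are the alpha-crystallins Cryaa and Cryab, the beta-crystallins Cryba1, Cryba2, Cryba4, Crybb1 and Crybb3, the gamma-crystallin Crygs, and the fibre cell membrane proteins Mip and Lim2. They were chosen by name, with earlier results of these data known. Every probe set of the array annotated to exactly 1 of these symbols was taken. This gave 13 probe sets for the 10 genes out of 45037 probe sets and 18193 genes on the array. Expression in mouse embryos was measured on 4 GeneChip Mouse Genome 430 2.0 arrays, 1 per group. The groups were wild-type embryos at E11.5, Hand2NC embryos at E11.5, wild-type embryos at E12.5 and Hand2NC embryos at E12.5. Hand2NC embryos carry Hand2 CAT/+; Wnt1-Cre, that is, a Hand2 transgene behind a floxed CAT cassette that Wnt1-Cre switches on in the neural crest. All 4 groups have the mixed C57BL/6J x ICR background. The labels give the tissue as whole body at E11.5 and as head at E12.5, although a legend of the study speaks of heads for the earlier stage too. RNA was pooled before hybridisation, so each group is 1 array, its embryos cannot be compared with each other, and no difference has a replicate check.

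Crystallins are the abundant soluble proteins of the lens, packed at a density that makes the tissue transparent and refractive. The alpha-crystallins are small heat shock proteins that hold other proteins in solution, and the beta- and gamma-crystallins belong to a second structural family and are known as products of the differentiating fibre cells. The lens forms from the surface ectoderm and not from the neural crest, and its hollow vesicle fills with primary fibre cells at about the stages sampled here. In bulk RNA of a body or a head, fewer lens cells and less RNA per lens cell cannot be told apart.

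The arrays had nearly equal medians, with signals of 97.2 to 106. Hand2 itself was read by 3 probe sets, of which the brightest had signals of 1214 in wild-type and 1244 in Hand2NC at E11.5, and 592 and 839 at E12.5. The next one had 67.1 and 314 at E11.5, and 33.4 and 706 at E12.5, so it was higher in Hand2NC at both stages, whereas the dimmest read 7.82 or less on every array. Heart muscle markers had a median signal of 749 and 809 on the wild-type and Hand2NC E11.5 arrays and of 36.4 and 56.2 on the E12.5 arrays over 15 genes. The 9 liver markers measured had medians of 1607 and 1547 at E11.5 and of 36.1 and 51.6 at E12.5. By these medians the trunk organs were read on the E11.5 arrays and were dim on the E12.5 arrays, as the labels for body and head say. The 3 Y-linked genes measured, of 4 listed, had signals of 315 to 956 on the other 3 arrays and of 14.4 or less on the Hand2NC E12.5 array.

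The promoters of the lens genes are shown first because 1 short motif stands in each of those that could be read. The windows are the 250 bases before the RefSeq start of the gene on GRCm38.p6, printed along the gene's own strand, and 9 of the 10 genes were found in the RefSeq promoter table, Cryab being the one not found. Both strands were searched for 4 motifs, namely the Maf half-site TGCTGA, the Sox site ACAAAG, the heat shock element GAANNTTC and the TATA box TATAAA. None of the marked stretches overlapped another. Capitals mark every match. The 5 windows printed are those of an alpha-crystallin, Cryaa (chr17:31677681-31677930, plus strand), an acidic beta-crystallin, Cryba1 (chr11:77725294-77725543, minus strand), the basic beta-crystallins Crybb1 (chr5:112255570-112255819, plus strand) and Crybb3 (chr5:113081585-113081834, minus strand), and the membrane protein Mip (chr10:128225560-128225809, plus strand).

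Cryaa: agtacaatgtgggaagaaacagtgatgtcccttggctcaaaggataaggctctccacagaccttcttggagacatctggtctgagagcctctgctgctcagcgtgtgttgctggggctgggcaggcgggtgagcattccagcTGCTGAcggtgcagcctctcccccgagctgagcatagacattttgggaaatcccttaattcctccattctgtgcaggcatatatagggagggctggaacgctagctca
Cryba1: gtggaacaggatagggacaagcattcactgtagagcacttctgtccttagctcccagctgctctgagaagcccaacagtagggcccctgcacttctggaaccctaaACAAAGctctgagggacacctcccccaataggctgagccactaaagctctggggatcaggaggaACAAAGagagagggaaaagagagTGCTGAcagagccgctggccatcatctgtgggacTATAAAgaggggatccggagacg
Crybb1: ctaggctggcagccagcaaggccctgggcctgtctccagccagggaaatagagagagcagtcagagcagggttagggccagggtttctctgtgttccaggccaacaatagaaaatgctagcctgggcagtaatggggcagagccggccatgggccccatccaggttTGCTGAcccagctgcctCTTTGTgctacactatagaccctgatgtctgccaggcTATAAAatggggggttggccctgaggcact
Crybb3: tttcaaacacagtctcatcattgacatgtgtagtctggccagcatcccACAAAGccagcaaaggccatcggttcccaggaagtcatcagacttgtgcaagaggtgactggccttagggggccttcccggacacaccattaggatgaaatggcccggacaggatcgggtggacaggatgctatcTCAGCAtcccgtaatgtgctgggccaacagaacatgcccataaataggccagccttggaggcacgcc
Mip: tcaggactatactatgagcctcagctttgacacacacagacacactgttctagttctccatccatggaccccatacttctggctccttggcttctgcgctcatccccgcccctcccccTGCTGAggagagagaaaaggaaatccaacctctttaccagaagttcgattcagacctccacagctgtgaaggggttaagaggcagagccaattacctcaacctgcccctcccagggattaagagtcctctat

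The Maf half-site was found in 9 of 9 windows of the lens genes, against 16.1% of all 32851 windows of this length. Maf proteins are the transcription factors known to bind such sites in crystallin promoters. In the printed windows the half-site began 108 bases before the start in Cryaa, 57 in Cryba1, 84 in Crybb1, 67 in Crybb3, where it lies on the opposite strand, and 132 in Mip. Cryba4 held 3 copies, which began 182, 135 and 77 bases before the start. Cryba2, Lim2 and Crygs held 1 each at 149, 139 and 200 bases, all on the opposite strand. The windows not printed lie at chr1:74893144-74893393 (Cryba2, minus strand), chr5:112252519-112252768 (Cryba4, minus strand), chr7:43429849-43430098 (Lim2, plus strand) and chr16:22811411-22811660 (Crygs, minus strand). The Sox site was found in 4 of 9 windows, those of Cryba1, Crybb1, Crybb3 and Lim2, against 16.5% of all windows, and Cryba1 held 2. The TATA box letters were found in 3 of 9 windows, those of Cryba1, Crybb1 and Crygs, against 12.4%, and the heat shock element in 0 of 9, against 6.69%. In windows of the other lists, the Maf half-site was found in 3 of 11 for the other crystallins and their relatives (Cryga, Crygc and Crygn). For other lens fibre genes the half-site was in 4 of 11, and for lens transcription factors in 1 of 9. For retina it was in 2 of 6, for pigment epithelium in 1 of 5 and for periocular mesenchyme and cornea in 2 of 4. For skeletal muscle it was in 3 of 10, for heart muscle in 2 of 13 and for liver in 1 of 9. For small heat shock proteins it was in 0 of 5 and for Y-linked genes in 0 of 4. The differences between lists were not tested. These are matches of letters in 1 window per gene and do not show that a factor binds.

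Lens genes were high in the E12.5 heads. Of the 10 genes, 8 were at least 2-fold higher in the E12.5 head than in the E11.5 whole body in the wild-type pair of arrays, and 8 in the Hand2NC pair, and it was the same 8 in both, Cryaa, Cryba1, Cryba2, Cryba4, Crybb1, Crybb3, Mip and Lim2. A gene counted as called when its signal differed at least 2-fold and the brighter array of the pair lay at or above its own median, which 9 of the 10 genes reached in each pair, Crygs being the exception. Over all genes above this filter, 4.45% were higher in the head by this rule in the wild-type pair, 2.87% in the Hand2NC pair and 1.91% in both. None of the 10 genes was at least 2-fold lower in the head, against 2.61% of genes in the wild-type pair and 2.24% in the Hand2NC pair. The median log2 difference of head to body over the 10 genes was 1.99 in the wild-type pair and 2.06 in the Hand2NC pair, where the medians over all genes were 0.0056 and 0.04. Both heads lay above both bodies for 8 of the 9 lens genes above the filter in both pairs, as they did for 39% of all 11803 genes above it in both, and both lay below for Cryab, as for 31.4% of those genes. Cryba2, Cryba4, Crybb1, Mip and Lim2 passed the filter only through the heads, their body signals being below the array medians, so the filter itself favoured this order for them. With both arrays required to reach their median, 4 lens genes were left in each pair, of which 3 were called higher. Stage and tissue differ together in these pairs, so a later stage and the removal of the trunk cannot be told apart, and neither pair has a test.

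**Figure D1:**
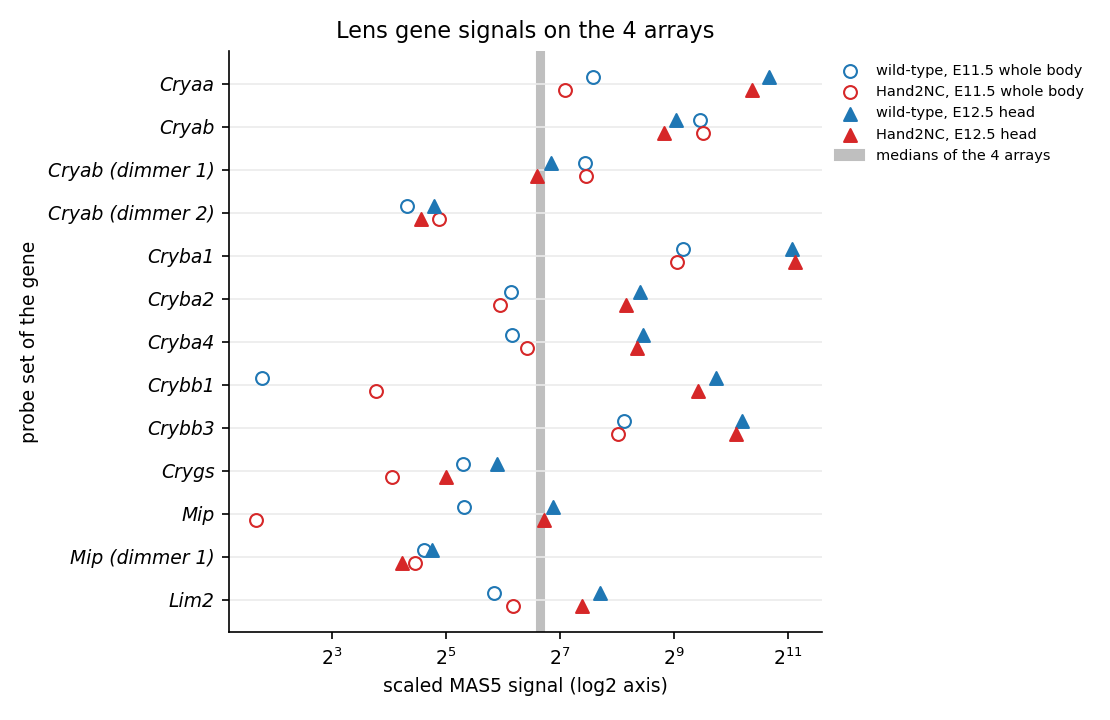
Scaled MAS5 signal (log axis) of all 13 probe sets of the 10 lens genes on the 4 arrays, 1 point per array, with the array medians as reference. Crybb1 runs from 3.42 in the wild-type body to 854 in the wild-type head. The brightest Cryab probe set is a little higher in the bodies, and Crygs lies below the array medians throughout.

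The alpha-crystallins went in opposite directions. Cryaa, the alpha-crystallin that is largely restricted to the lens, had signals of 191 in the wild-type body, 136 in the Hand2NC body, 1625 in the wild-type head and 1329 in the Hand2NC head. Both heads stood far above both bodies, by 8.51-fold in the wild-type pair and 9.75-fold in the Hand2NC pair. The log2 differences were 3.09 and 3.29, and the local spread was 0.41 and 0.34. Local spread here is the robust standard deviation of the same log2 difference over the 500 genes nearest in mean signal, and it holds real change as well as error. The rise of Cryaa was number 3 of 12061 genes in the wild-type pair and number 4 of 11990 in the Hand2NC pair.

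Cryab, the alpha-crystallin that is also made in heart and skeletal muscle, had signals of 702 and 727 in the wild-type and Hand2NC bodies and of 528 and 452 in the heads on its brightest probe set. Both bodies lay above both heads, with log2 differences of -0.41 and -0.68 from body to head, beyond the local spread of 0.37 and 0.34 and short of 2-fold. Its next probe set read 174 and 176 in the bodies and 115 and 96.8 in the heads, the same order at a lower level. The third was dim on all arrays, at 19.8, 29.5, 27.8 and 23.7 in the order wild-type body, Hand2NC body, wild-type head, Hand2NC head, and its differences of 0.49 and -0.32 differed in sign between the pairs. Heart muscle markers moved with Cryab and by more: 12 of 15 were at least 2-fold lower in the head in the wild-type pair and 11 in the Hand2NC pair, with median log2 differences of -3.13 and -2.74, and their summed signals were 23166 and 23939 in the bodies and 5392 and 6176 in the heads. The atrial light chain gene Myl7, for example, had signals of 2201 and 2329 in the bodies and of 14.3 and 25.1 in the heads. Of 11 skeletal muscle genes, 1 was at least 2-fold lower in the wild-type pair (Myf5) and 2 were in the Hand2NC pair (Myf5 and Des). Their part in the Cryab difference was not tested. Hspb2, the small heat shock gene that neighbours Cryab on chromosome 9, had signals of 399 and 369 in the bodies and of 184 and 215 in the heads, log2 differences of -1.11 and -0.78.

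The 5 beta-crystallins were all at least 2-fold higher in the heads in both pairs. Cryba1, an acidic beta-crystallin, had signals of 571 in the wild-type body and 533 in the Hand2NC body, against 2158 and 2227 in the heads. All 4 signals were well above the array medians, and the log2 differences of 1.92 and 2.06 exceeded the local spread of 0.36 and 0.31. Crybb3, a basic beta-crystallin, had 279 and 259 in the bodies and 1169 and 1082 in the heads. Its log2 differences, 2.07 and 2.06 with a local spread of 0.40 and 0.35, were nearly equal in the wild-type and Hand2NC pairs.

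Cryba2 had signals of 70.2 and 61.5 in the wild-type and Hand2NC bodies, below the array medians, and of 338 and 284 in the heads. Its log2 differences were 2.27 and 2.21, with a local spread of 0.56 in each pair. Cryba4 had 71.2 and 85.6 in the bodies and 353 and 327 in the heads, with log2 differences of 2.31 and 1.93 and a local spread of 0.55 and 0.46. Both acidic beta-crystallins thus passed from below to above the median of their arrays. When body signals under the array median were raised to that median, the log2 differences of Cryba2 were 1.80 and 1.49 and those of Cryba4 1.86 and 1.69, still past 2-fold.

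Crybb1, a basic beta-crystallin that lies next to Cryba4 on chromosome 5 with the starts 3302 bases apart, had signals of 3.42 and 13.7 in the wild-type and Hand2NC bodies and of 854 and 687 in the heads. The body signals were far below the array medians, and the log2 differences of 7.97 and 5.65 ranked number 1 among all genes above the filter in both pairs. With the body signals raised to the array median, the heads were at least 8.79-fold and 6.78-fold higher, which is the part of the difference that does not rest on dim signals. Crybb1 and Cryba4 are transcribed away from each other.

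Crygs, the gamma-crystallin that is known mostly from the later and adult lens, stayed dim. Its signals were 39.3 in the wild-type body, 16.6 in the Hand2NC body, 59.8 in the wild-type head and 32.0 in the Hand2NC head. All 4 lay below the median of their array, the groups overlapped, and the log2 differences of 0.61 and 0.94 were within the local spread of 0.72 and 0.95.

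Mip, the water channel aquaporin 0 of fibre cell membranes, had signals of 39.6 and 3.18 in the wild-type and Hand2NC bodies and of 117 and 105 in the heads on its brighter probe set. The heads lay just above the array medians of 106 and 102. The log2 differences were 1.56 and 5.05, with a local spread of 0.69 and 1.21, but with dim signals raised to the array median they were 0.27 and 0.05, so both calls rest on body signals below the median. The dimmer probe set had 24.5, 21.9, 27.1 and 18.7 in the order wild-type body, Hand2NC body, wild-type head, Hand2NC head, with no separation of heads from bodies. With the mean over the 2 probe sets the log2 differences were 0.85 and 2.41.

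Lim2, an integral membrane protein of the fibre cells, had signals of 57.5 and 72.1 in the wild-type and Hand2NC bodies and of 208 and 167 in the heads. Both heads were above both bodies, with log2 differences of 1.86 and 1.21 against a local spread of 0.66 and 0.58. Raised to the array median, the bodies gave 1.10 in the wild-type pair and 0.72 in the Hand2NC pair, so the call of the Hand2NC pair did not pass 2-fold in that way. Cryaa, Cryba1, Cryba2, Cryba4, Crybb1 and Crybb3 are the genes that were past 2-fold in both pairs with dim signals raised.

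**Figure D2:**
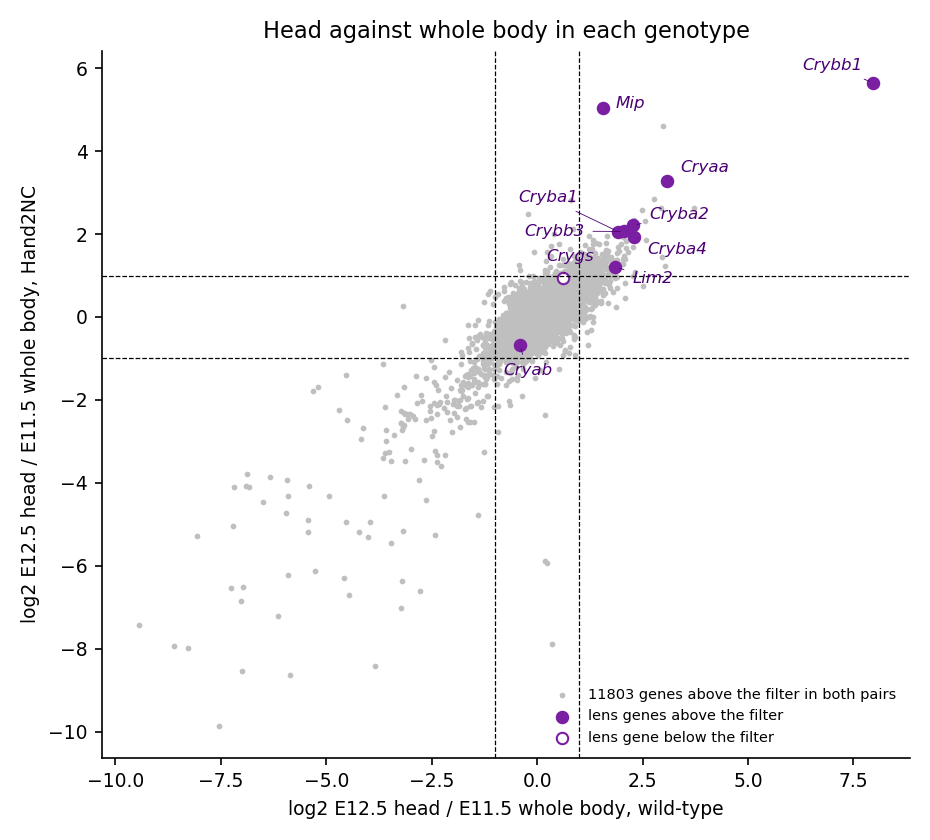
Log2 difference of E12.5 head to E11.5 whole body for each lens gene, with the wild-type pair across and the Hand2NC pair upwards. Grey points are the 11803 genes above the filter in both pairs, and dashed lines mark 2-fold. Of the 10 genes, 8 lie at or beyond 1 in both pairs, Cryab lies below 0 in both, and the pairs part most for Crybb1 and Mip, each of which has a body signal of 3.42 or less.

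Gamma-crystallins outside the 10 genes were also higher in the heads. Of 11 other crystallins and relatives listed, 9 were measured, and 5 were at least 2-fold higher in the head in both pairs, with 0 lower. Cryga, a gamma-crystallin of the fibre cells, had signals of 195 and 213 in the wild-type and Hand2NC bodies and of 1489 and 1328 in the heads, log2 differences of 2.93 and 2.64. Crygb (2.78 and 2.85), Crygd (2.98 and 4.61) and Crygn (2.29 and 2.35) had body signals below the array median. Crygf gave 1.99 and 1.76, but its probe set can bind near-identical copies of the gamma family, so its signal cannot be given to 1 gene. Crybg3, a larger relative outside the lens crystallins proper, had 336 and 365 in the bodies and 345 and 411 in the heads, which overlap. The median over the 9 was 1.99 and 1.76.

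Other proteins of the lens fibre were mostly too dim to compare. Of 12 listed, 8 were measured, 2 were above the filter in each pair and 0 were at least 2-fold different. The lens filament gene Bfsp2, the gap junction gene Gja3 and the lens galectin gene Grifin were among the 6 below the filter. Tdrd7, an RNA granule protein needed in the lens, had signals of 387 and 408 in the wild-type and Hand2NC bodies and of 537 and 443 in the heads. Hspb1, a small heat shock protein made in many tissues, had 1618 and 1489 in the bodies and 1195 and 1224 in the heads.

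Of 12 lens transcription factors listed, 11 were measured, 9 lay above the filter, 3 had heads at least 2-fold higher in both pairs and 0 were lower. The 3 were Pax6, the regulator of eye formation, at 547 and 540 in the wild-type and Hand2NC bodies and 1220 and 1148 in the heads, Six3, an early lens and forebrain factor, at 145 and 149 against 625 and 468, and Sox1, an activator of gamma-crystallin genes, at 235 and 300 against 863 and 777. These 3 also act in the neural tube. Sox2, a partner of Pax6 in the early lens, had log2 differences of 0.82 and 0.73, Meis1 of -0.40 and -0.50, Maf of 0.43 and 0.10, and Prox1, a factor of fibre cell elongation, of 0.23 and 0.10, all short of 2-fold. Foxe3, a factor of the lens epithelium and one of the most specific to it, was at 4.72 or less on every array. The median over the 11 factors was 0.43 and 0.10.

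Neighbouring eye tissues were read less clearly. Of the 6 retina genes measured, 2 were at least 2-fold higher in the head in each pair, Six6 (1.73) and Lhx2 (1.05) in the wild-type pair and Lhx2 (1.12) and Atoh7 (2.12) in the Hand2NC pair, with medians over the 6 of 0.90 and 1.11. Otx2, a factor of the forebrain, retina and pigment epithelium, was just under the call with 0.95 and 0.85. Of 8 pigment epithelium genes, 3 were above the filter and 0 were called, with medians of 0.11 and 0.58. The melanosome gene Pmel had 0.37 and 0.80, and the melanin synthesis genes Dct and Tyr had 0.13 and 0.31, and -0.02 and 0.86. Mitf, the regulator of pigment cells, had 0.09 in each pair. Of 7 genes of the periocular mesenchyme and cornea, 6 were above it and 0 were called, with medians of 0.10 and 0.33. Foxc1 and Foxc2, forkhead factors of the mesenchyme in front of the lens, had 0.10 and 0.29, and -0.18 and 0.16, the corneal proteoglycan gene Kera had -0.54 and -0.58, and the retinoic acid synthesis gene Aldh1a3 had 0.81 and 0.64. The median of the lens genes was above those of these 3 lists in both pairs. The part of these tissues and of the brain in the lens gene differences was not tested.

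**Figure D3:**
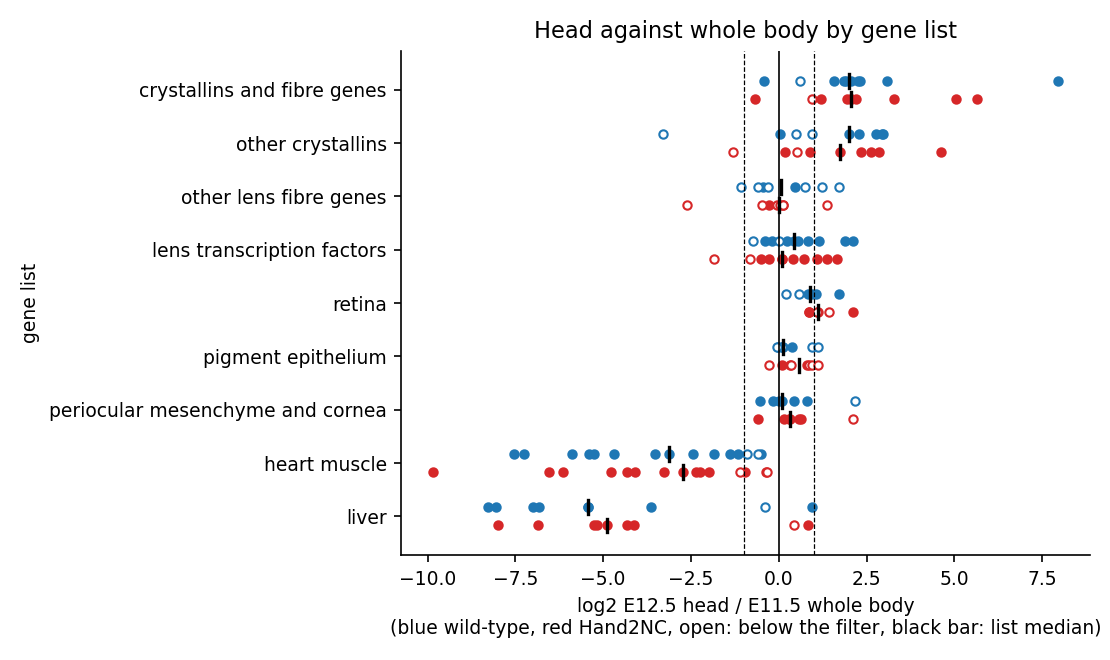
Log2 difference of E12.5 head to E11.5 whole body for each gene of the lists, wild-type pair and Hand2NC pair, with the list median as a bar. The lens genes and the other crystallins have medians between 1.76 and 2.06, and heart muscle and liver have medians between -2.74 and -5.44.

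The genotype comparison asks whether Hand2 made in the neural crest goes with a different level of lens genes. At E11.5, 0 of the 10 genes were called either way, of which 4 were above the filter (Cryaa, Cryab, Cryba1 and Crybb3), where 0.446% of all 11886 genes above it were called. Cryaa was 191 in the wild-type and 136 in Hand2NC, a log2 difference of -0.49 that exceeded its local spread of 0.28. Cryab (0.05), Cryba1 (-0.10) and Crybb3 (-0.11) were within theirs. The differences of the 6 genes below the filter ran from -3.64 for Mip to 2.0 for Crybb1, at body signals of 3.18 to 85.6, where the local spread reached 2.58. The median over the 10 genes was -0.10, and over all genes it was -0.02.

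At E12.5, 0 of the 10 genes were called either way, of which 9 were above the filter, where 0.398% of all 11815 genes above it were called. The signal was lower in Hand2NC heads for 9 of the 10 genes, Cryba1 (0.04) being the exception, and the median log2 difference was -0.24, where the median over all genes was 0.0023. Of the 9 genes above the filter, 8 were lower, and of all genes above it 49.1% were. The difference exceeded the local spread for 5 of the 9, Cryaa (-0.29, local spread 0.13), Crybb1 (-0.31, 0.14), Lim2 (-0.32, 0.26), Cryba2 (-0.25, 0.24) and Cryab (-0.22, 0.18), where 16.9% of all genes above the filter were lower by more than theirs. With the arrays centred on their medians, Cryba2 and Cryab came within the spread, which left 3 of the 9 (Cryaa, Crybb1 and Lim2). Cryba4 (-0.11), Crybb3 (-0.11) and Mip (-0.16) were within theirs, and Crygs, below the filter, had 59.8 in the wild-type and 32.0 in Hand2NC. In folds, these differences ran up to 1.25 among the genes above the filter, and with 1 pool of heads per genotype it was not tested whether they exceed the spread between pools. The 3 Y-linked genes measured were at 402 to 956 on the wild-type head array and at 14.4 or less on the Hand2NC head array, so the pools may differ in the sex of their embryos as well as in genotype, and the part of this in the lens genes was not tested.

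**Figure D4:**
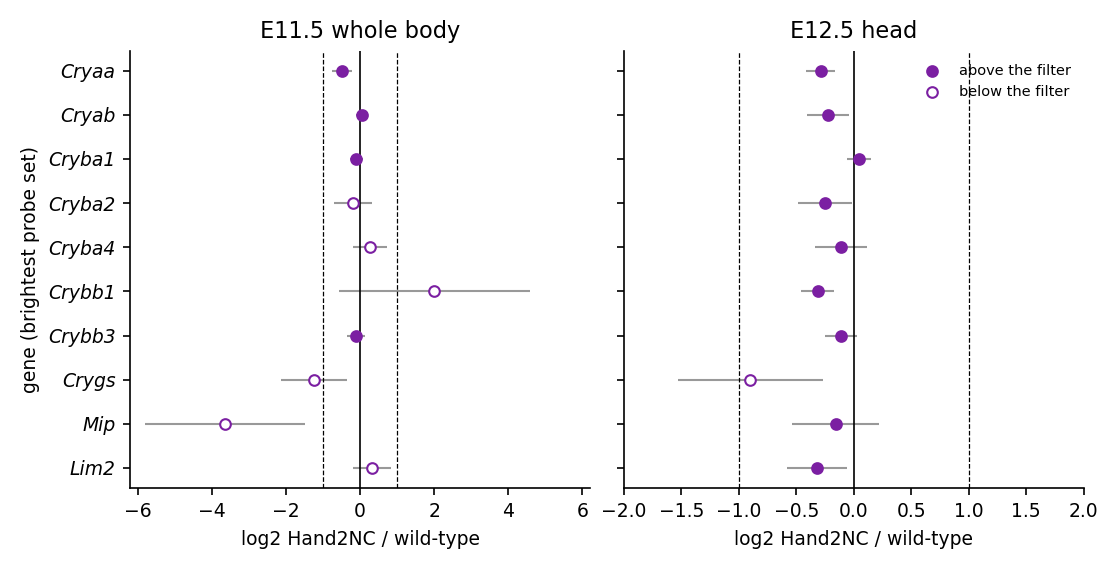
Log2 difference of Hand2NC to wild-type for each lens gene at E11.5 (whole body) and at E12.5 (head), with bars of 1 local spread on each side. At E12.5 the points lie between -0.90 and 0.04, 9 of 10 below 0, and at E11.5 they scatter from -3.64 to 2.0, with the widest bars on Crybb1 and Mip.

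The other crystallins differed in direction among themselves at E12.5. Cryga had 1489 in the wild-type head and 1328 in the Hand2NC head (-0.16, local spread 0.13). Crygn had 282 and 239 (-0.24, local spread 0.26). Crygb had 287 and 323 (0.17, local spread 0.24), Crygf 289 and 312 (0.11, 0.24), and Crygd 199 and 301 (0.60, 0.26). The median over the 9 measured was 0.17, and these include relatives such as Crybg3 and genes below the filter such as Crybb2. Among the lens transcription factors, Six3 was 625 in the wild-type and 468 in Hand2NC (-0.42, local spread 0.18), Pax6 differed by -0.09 and Maf by -0.12.

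Across the 4 arrays, the profiles nearest to that of Cryaa were those of other crystallins, mixed with genes on none of the lists. Likeness was the Euclidean distance between the 4 log2 signals after each gene was centred on its own mean, over 11803 genes above the filter in both pairs. By this measure Cryga was number 1 and Crygb number 2, Crygn and Crygd were numbers 5 and 6, and Cryba2, Crybb3, Cryba4 and Cryba1 were numbers 7, 8, 10 and 15. Lim2 was number 49 and Mip number 347, whereas Cryab, which was higher in the bodies, was number 11095, and Crybb1, whose place rests on its dim body signals of 3.42 and 13.7, was number 11465. Of genes on none of the lists, the nearest were the histone gene H3f3b (number 3, distance 0.701) and the neuronal transcription factor gene Neurod6 (number 4, 0.787). Next came Bcan (number 9, 1.16), which encodes the brain matrix proteoglycan brevican, Rusc2 (number 11, 1.20) and Plch2 (number 12, 1.22). Neurod6 had signals of 220 and 190 in the wild-type and Hand2NC bodies and of 1297 and 944 in the heads. With 4 arrays, of which 2 are heads, a gene of the brain and a gene of the lens can have the same profile.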

How the data were processed

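RNA of pooled embryos, wild-type or Hand2NC, was hybridised to 1 GeneChip Mouse Genome 430 2.0 array per group. The authors deposited MAS5 intensity signals (linear; the version is not given in the sources used here) for 45101 probe sets without detection calls. After removal of 64 controls, arrays were brought to a trimmed mean of 500 (trim 2%) and transformed to log2. Names came from the platform annotation, checked by gene identifier against RefSeq (GRCm38.p6). The 34945 probe sets with 1 symbol were used and the 932 with several and 9160 with none left out. Where several read a gene, the one of highest mean log2 signal stood for it. Called means a difference of at least 2-fold with the brighter array at or above its median. No test was run, since each group has 1 array, which limits the precision.

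By rule, the text names all 10 lens genes with every probe set, the called genes and the 4 brightest of the other lists, and the 5 genes on no list nearest to Cryaa. The heart, liver, skeletal muscle, Y-linked and small heat shock lists are exceptions, given mostly as counts or ranges. Hand2, Bfsp2, Prox1 and Foxe3 were added after their values were seen. The genes and lists were chosen with earlier results of these data known. The alternatives changed the scaling (deposited values, median centring, quantile, loess with span 0.3), the filter, dim signals and the choice of probe set. Counting was tested on simulated data. Promoters came from RefSeq on GRCm38.p6. The software was Python 3.11.15 with matplotlib 3.10.9, pandas 2.3.3, numpy 2.4.6, statsmodels 0.14.6 and scipy 1.17.1.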

Additional observations from a re-analysis of the deposited data

Results flagged for a closer look

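The criteria for a closer look needed a gene to be above the filter at both stages. Only 4 of the 10 lens genes were above it at E11.5 (Cryaa, Cryab, Cryba1 and Crybb3), and none of these met the criteria. The search covered the lens and eye lists only, not those of muscle, liver, small heat shock and Y-linked genes. Of the genes on the other lens and eye lists, 4 differed between Hand2NC and wild-type in opposite directions at the 2 stages, each time by more than the local spread. Of all genes above the filter, 34.4% differed by more than their local spread at E11.5 and 33.9% at E12.5, in either direction. The share of all genes that did so in opposite directions was not counted, so the 4 cannot be called unusual. The difference between the stages was not tested, since each group is 1 array. For Sox1 the log2 difference of Hand2NC to wild-type was 0.35 at E11.5 and -0.15 at E12.5, which is -0.50 from the earlier to the later stage. For Maf it was 0.20 and -0.12 on its brightest probe set, which is -0.32. Its other probe sets above the array medians were mixed. The probe set with signals of 264 to 386 gave 0.08 and 0.11, with no change of direction. Those with signals of 388 to 686 and of 154 to 237 gave 0.06 and -0.24, and 0.19 and -0.11. For the retina gene Atoh7 it was -0.88 and 0.40, which is 1.28. For Foxc2 of the periocular mesenchyme it was -0.18 and 0.16, which is 0.34.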

How the results depend on the processing

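The counts of called lens genes in the stage pairs, 8 and 8, stayed at 8 under the 4 other scalings. They were also 8 without a filter and with a call from any probe set, settings that can add calls but not remove them. They were 7 in the wild-type pair and 6 in the Hand2NC pair with dim signals raised to the array median, and 7 in each with the mean over probe sets or with probe sets that may bind several transcripts left out, where Cryaa has no value. The stricter filters moved them most, since they leave fewer genes to test. When both arrays had to reach their median, 3 of the 4 lens genes left were called in each pair. Of all genes, 3.38% were higher in the wild-type pair and 2.05% in the Hand2NC pair by that rule. When the brighter array had to reach its 75th percentile, 4 of the 5 left were called in each pair, against 3.07% and 1.93% of all genes. At E11.5, Hand2NC against wild-type gave 3 calls without a filter (Crybb1 higher, Mip and Crygs lower), all at signals under the array median. Without a filter, 4.88% of all genes were higher and 7.06% lower in that comparison. At E12.5 the count was 0 throughout. Median centring moved the median of all genes by -0.12 in the wild-type pair, where the split over all genes was 388 higher and 396 lower instead of 537 and 315, with 8 lens genes higher either way. The 9 of 10 lens genes lower at E12.5 were lower under the other 4 scalings too, although the number above the filter whose drop exceeded the local spread was 3 with median centring and 4 with quantile or loess in place of 5, whereas at E11.5 the split of 4 higher and 6 lower became 7 and 3 with dim signals raised. Of 276 single values recomputed over 7 settings, 261 moved by less than the local spread and 15 by more, and 0 called values changed sign. Many of the 261 could hardly move. A change in the choice of probe set cannot alter the value of the 8 genes with 1 probe set, and the deposited values were already almost on the same scale. Cryab turned to 0.49 in the wild-type pair when only its dimmest probe set was left. No paired test was run because each group is 1 array without replicates, and an additive fit over stage and genotype was not run. Signals under the array median, as for Crygs, Mip and the bodies' Crybb1, limit what can be read.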
